A study of Malus domestica with 18 samples.

Results

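In vitro shoots of the apple cultivar Húsvéti rozmaring (Malus domestica) were compared after 48 hour on medium with BAR and after 48 hour on medium without a cytokinin. BAR is 6-benzylaminopurine riboside, an adenine-type cytokinin in which the base carries a ribose, and it was given at 4.5 µM. The 6 libraries of the comparison, 3 labelled BAR and 3 labelled control at 48 hour, were chosen by those labels from 18 libraries in all. The explants were shoot pieces of 20 mm, and the RNA was labelled as coming from axillary shoots. Every medium, the control included, was an MS medium with 0.49 µM indole-3-butyric acid, an auxin, and 0.58 µM gibberellic acid, and the subculture before the experiment had no cytokinin. The control was therefore a shoot without added cytokinin, not a shoot without hormones. The other 12 libraries were 3 given 4.5 µM TDZ (thidiazuron, a synthetic cytokinin of the phenylurea type) for 48 hour and 9 taken at 4 week from the same 3 media.

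Cytokinins are perceived by histidine kinase receptors, which pass a phosphate through histidine phosphotransfer proteins to response regulators in the nucleus. Type-B response regulators are transcription factors that switch on cytokinin-responsive genes, among them the type-A response regulators, which damp the signal, and the cytokinin oxidases, which destroy the hormone. In shoots in culture, cytokinins are known for releasing axillary buds from apical dominance and for keeping meristems active.

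The labels call the 3 libraries of a group biological replicates, and no source used here says whether they came from separate vessels, so the p-values measure the spread between these libraries. The 6 libraries held 15157629 to 18797460 counts in genes. One BAR library, replicate 1, stood apart from the others on the first principal component of the 6, which held 37.4% of the variance: its score was 104.2, against -52.81 to 2.905 in the rest. Its Spearman correlation across genes was 0.96 with BAR replicate 2 and 0.941 with BAR replicate 3, against 0.966 to 0.973 among the controls, and BAR replicate 3 correlated at 0.975 with control replicate 1. Medians of gene lists are given below with the values they took when 1 of the 6 libraries was left out, where these differed by over 1.5 times. Genes are named by the Swiss-Prot protein that the deposited table lists as their closest match, so several apple genes share a name and near-identical copies may share reads. The tissue label was checked with fixed marker lists: 1 of 11 root genes had enough counts to be tested, whereas 56 of 64 nuclear photosystem genes did. In whole shoots, fewer cells of a type and less RNA per cell cannot be told apart.

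Few single genes passed a test over the whole table at 48 hour, and those with a protein name were cytokinin-response, cyanogenesis and plastid genes. Of 24650 genes tested, 4 rose (0.0162%) and 3 fell (0.0122%) with BAR at an adjusted p under 0.05 (edgeR quasi-likelihood test, Benjamini-Hochberg adjustment over all genes tested). The 4 that rose were response regulators named ORR4 and ARR17, the cytokinin oxidase CKX3 and an (R)-mandelonitrile lyase. The 3 that fell were genes named for the plastid proteins atpB and psbH and a gene with no protein name. At an unadjusted p under 0.05 there were 610 higher genes (2.47%) and 484 lower (1.96%). In 1432 genes (5.81%) all 3 BAR libraries lay above all 3 controls, and in 1375 (5.58%) all 3 lay below them. These percentages are the background against which the gene lists below are read. Over all genes tested, the median log2 difference between BAR and control was 0.0042 and 50.5% were positive. Leaving out any 1 control ended every call, with 457 higher and 277 lower genes at an unadjusted p under 0.05 without control replicate 1, 455 and 375 without replicate 2, and 573 and 496 without replicate 3. Without BAR replicate 1 or 2, 2 genes were called higher and 0 lower, and without BAR replicate 3, 5 and 5. The TDZ libraries of 48 hour shared the estimate of the spread, and leaving out TDZ replicate 1, 2 or 3 gave 6, 2 or 4 higher and 11, 0 or 6 lower. With the spread taken from all 18 libraries edgeR called 0 genes, with 345 higher and 348 lower at an unadjusted p under 0.05, while on the 9 libraries of 48 hour DESeq2 called 41 higher and 38 lower and limma-voom 0 and 4.

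The receptors come first in the pathway, and 6 genes were tested. Of these, both genes named Histidine kinase 4, the receptor known in Arabidopsis as CRE1, were higher in all 3 BAR libraries than in all 3 controls, although neither passed the adjusted threshold. For DVH24_007629 the controls read 30.78, 36.49 and 40.88 CPM (library-size-scaled read counts, adjusted by TMM) and the BAR libraries 65.43, 47.82 and 58.93. The log2 difference was 0.67 ± 0.19 (SE, 3 against 3; unadjusted p = 0.003294, adjusted p = 0.7808). For DVH24_040279 the controls read 10.92, 17.79 and 27.76 CPM and the BAR libraries 35.83, 31.19 and 38.11, a log2 difference of 0.90 ± 0.30 (adjusted p = 0.9562). The 4 genes named Histidine kinase 2 or Histidine kinase 3 had log2 differences of -0.38 to -0.12, all on the other side of zero. Of these, DVH24_032453 read 48.64, 45.65 and 35.69 CPM in the controls and 32.56, 30.52 and 36.68 with BAR, so that its groups overlapped. Another 1 of these 4 genes had BAR below every control, and none of the 4 had an unadjusted p under 0.05.

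Histidine phosphotransfer proteins carry the phosphate from the receptors to the nucleus. Of 4 tested, 3 had a positive log2 difference and 1 an unadjusted p under 0.05. That gene, DVH24_015255 (phosphotransfer protein 1), read 26.79, 26.02 and 32.22 CPM in the controls and 87.70, 50.43 and 49.26 with BAR, so that the groups did not overlap. Its log2 difference was 1.14 ± 0.24 (adjusted p = 0.2685). The 1 gene with a negative difference, DVH24_002767 (-0.20, adjusted p = 0.9996), had BAR below every control. Type-B response regulators, the transcriptional activators, were nearer to the background: of 9 tested, 6 had a positive difference, none an unadjusted p under 0.05 and none an adjusted p under 0.05, with a median of 0.19 (0.06 without control replicate 1, 0.07 without BAR replicate 2). The type-B gene DVH24_007612 (ORR21) read 164.2, 150.6 and 143.6 CPM in the controls and 126.8, 118.7 and 126.8 with BAR. This put BAR below all controls, at a log2 difference of -0.30 ± 0.17. In DVH24_024684 (ARR2) BAR lay above all controls, at 1.319, 0.834 and 2.541 CPM against 0.3212, 0.527 and 0.3995. Its log2 difference was 1.89 ± 1.00 (adjusted p = 0.9996).

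Type-A response regulators, the early targets of the pathway, were mostly higher with BAR. All 10 genes tested had a positive log2 difference, with a median of 1.26, 8 had an unadjusted p under 0.05 against 2.47% of all genes, and 9 had BAR above every control against 5.81%. Of the 10, 2 passed the adjusted threshold. DVH24_042790, named ORR4, read 0.8995, 0.7904 and 0.9321 CPM in the controls and 7.176, 10.23 and 6.630 with BAR. The controls lay close together, and every BAR library was several times above them: the log2 difference was 3.19 ± 0.34, 9.1-fold (adjusted p = 0.01059). DVH24_024436, named ARR17, read 2.634, 2.832 and 4.061 CPM in the controls and 11.98, 9.174 and 13.51 with BAR, 3.63-fold higher (log2 difference 1.86 ± 0.26; adjusted p = 0.03462).

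The other type-A genes were higher in BAR without passing that threshold. A second ORR4 gene, DVH24_006913, read 1.927, 2.240 and 3.595 CPM in the controls and 14.99, 9.174 and 9.357 with BAR (log2 difference 2.11 ± 0.36; adjusted p = 0.1125). DVH24_008781, named ARR6, read 28.14, 27.14 and 41.28 CPM against 63.53, 74.06 and 87.18 (1.22 ± 0.21; adjusted p = 0.1125), and DVH24_007079, named ARR3, read 31.87, 19.56 and 53.86 CPM against 130.2, 92.41 and 83.34 (1.54 ± 0.31; adjusted p = 0.2685). In none of these 3 genes did the groups overlap, and the controls of ARR3 were the most scattered. Of the remaining 5, DVH24_040788, DVH24_019719, DVH24_004874 and DVH24_015948 had log2 differences of 0.50 to 1.31 with BAR above every control, and DVH24_022837, at under 1 CPM in each of the 6 libraries, had 0.30 ± 0.89. The count of 8 genes at an unadjusted p under 0.05 was also 8 when any 1 of the 6 libraries was left out, BAR replicate 1 included.

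**Figure D1:**
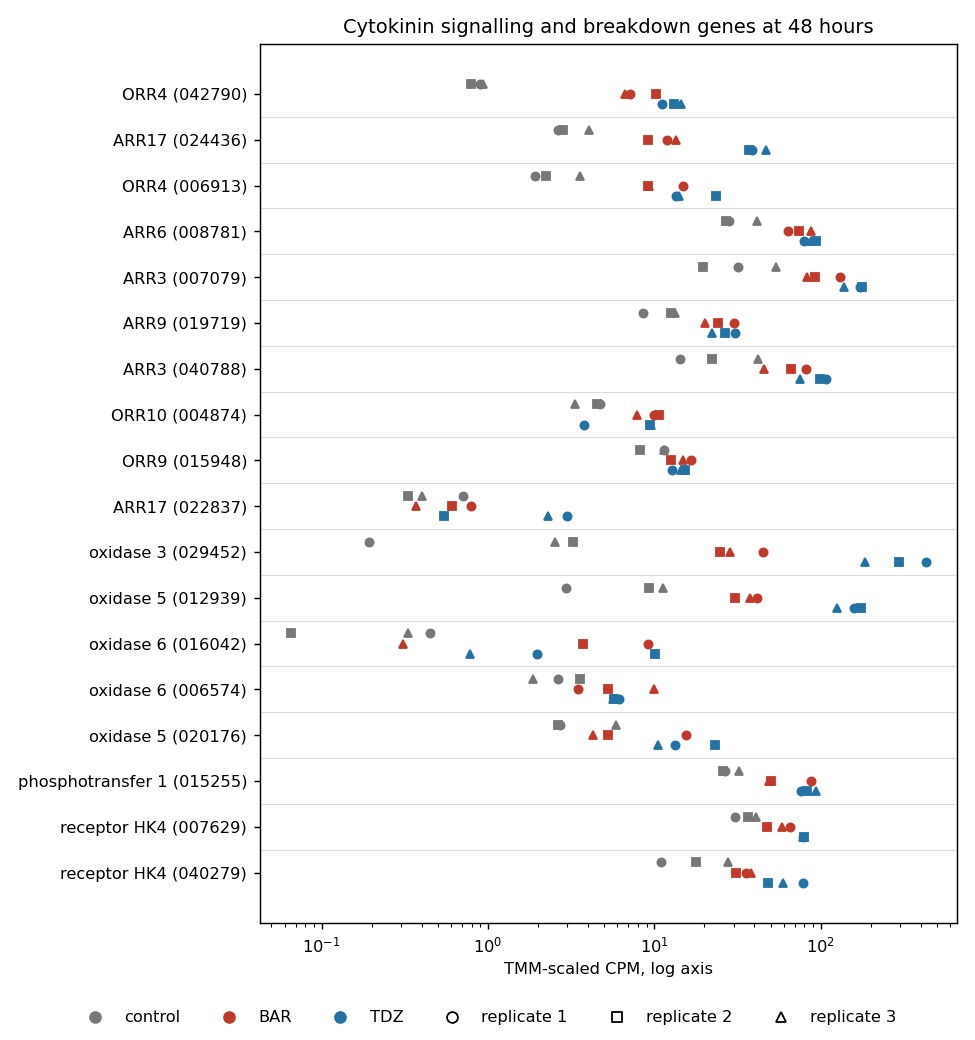
CPM on a log axis in each 48 hour library for 10 type-A response regulators, 5 cytokinin oxidases, phosphotransfer protein 1 and both genes named Histidine kinase 4, with control in grey, BAR in red and TDZ in blue and the symbol giving the replicate. BAR points lie above every control point for 9 of the 10 type-A genes, and TDZ points lie far above the BAR points for ARR17 and CKX3.

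Cytokinin response factors are AP2-type transcription factors that cytokinin is known to induce in Arabidopsis. All 4 tested had a positive log2 difference, with a median of 0.81, and 2 had an unadjusted p under 0.05. DVH24_008193, named CRF2, read 28.53, 16.40 and 16.11 CPM in the controls and 44.01, 43.20 and 32.59 with BAR, with no overlap (0.97 ± 0.28; adjusted p = 0.8357). For DVH24_022457, named CRF4, the highest control, 4.754 CPM, lay above the lowest BAR library, 4.214, and the log2 difference was 1.09 ± 0.48. The count of 2 was 1 without control replicate 2, BAR replicate 1 or BAR replicate 2, and 3 without control replicate 3. With TDZ, 1 of these 4 genes had a positive difference from the same controls. That gene was CRF2, DVH24_008193, at a log2 difference of 1.32 with TDZ against 0.97 with BAR.

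Cytokinin oxidases, also called cytokinin dehydrogenases, cleave the side chain from the hormone. Of 9 tested, 8 had a positive log2 difference, with a median of 1.18, 5 had an unadjusted p under 0.05 and 2 had no overlap. Without BAR replicate 1 the median was 0.35, and 4 had an unadjusted p under 0.05. CKX3, DVH24_029452, read 0.1927, 3.228 and 2.530 CPM in the controls and 45.11, 24.96 and 28.38 with BAR. Each BAR library was above every control and the gene was 16.5-fold higher (log2 difference 4.05 ± 0.58; adjusted p = 0.0397), the largest of the 7 called differences. Without control replicate 1, the lowest, the log2 difference was 3.51. DVH24_012939, named CKX5, read 2.955, 9.354 and 11.32 CPM against 41.26, 30.69 and 37.55 (2.21 ± 0.37; adjusted p = 0.09954). DVH24_016042, named CKX6, was uneven among the BAR libraries, with 9.234, 3.725 and 0.3098 CPM against 0.4497, 0.06587 and 0.3329 in the controls, so that BAR replicate 3 lay below control replicate 1. A second CKX6 gene, DVH24_006574, and a second CKX5 gene, DVH24_020176, had log2 differences of 1.21 ± 0.44 and 1.16 ± 0.52.

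Genes that make active cytokinin or handle its riboside form were on both sides of zero. The LOG enzymes release active bases from riboside monophosphates; 10 were tested, 5 had a positive difference and 1 an unadjusted p under 0.05. That gene, DVH24_001501, read 0.8995, 0.9222 and 2.064 CPM in the controls and 6.965, 2.836 and 2.231 with BAR (1.63 ± 0.63; adjusted p = 0.9996), with no overlap but a narrow gap. Over the 12 genes of cytokinin synthesis tested, 6 differences were positive and 6 negative. A riboside can be taken up by nucleoside transporters, phosphorylated by adenosine kinase, or have its ribose removed by nucleosidases. Of 29 genes for such steps, 14 had a positive and 15 a negative difference, with a median of -0.05 (-0.07 to 0.11 with 1 of the 6 libraries left out), none had an unadjusted p under 0.05 and a higher value with BAR, and 1 had one and a lower value. The one lower gene was adenosine kinase 2, DVH24_005253, at 39.00, 45.78 and 40.88 CPM in the controls and 37.83, 25.91 and 29.50 with BAR (-0.43 ± 0.20; adjusted p = 0.9996). All 4 adenosine kinase genes had negative differences, with a median of -0.28. The adenine phosphoribosyltransferase APT5, DVH24_012089, an enzyme that returns cytokinin bases to nucleotides, read 30.39, 27.20 and 39.15 CPM against 47.12, 45.42 and 34.58 with BAR, and the groups overlapped (0.39 ± 0.21).

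Outside the hormone pathway, the called gene that rose was DVH24_002314, (R)-mandelonitrile lyase 3. Mandelonitrile lyases split the cyanohydrin left when cyanogenic glucosides, a defence of the rose family, are broken down, and release hydrogen cyanide. The gene read 6.939, 6.719 and 8.322 CPM in the controls and 57.36, 32.47 and 37.67 with BAR. It was 5.8-fold higher (log2 difference 2.54 ± 0.29; adjusted p = 0.01059), and the lowest BAR library lay far above the highest control. All 6 mandelonitrile lyase genes tested had a positive difference, with a median of 1.03, 1 had an unadjusted p under 0.05 and 2 had no overlap. The other gene with no overlap, DVH24_038637, read at or under 2.691 CPM in all 6 libraries. In DVH24_032876 only BAR replicate 2, at 31.86 CPM, lay above every control. With TDZ, 3 of the 6 genes had a positive difference from the same controls, with a median of 0.01. DVH24_032800, a cyanogenic beta-glucosidase, the enzyme of the step before, read 52.88, 89.39 and 74.24 CPM in the controls and 418.2, 176.7 and 498.8 with BAR (2.34 ± 0.49; adjusted p = 0.2685).

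Genes named for proteins that plastids encode had the lowest median of the 53 gene lists. Plastid genomes carry the core subunits of the photosystems, of the ATP synthase and of a bacterial-type RNA polymerase, while most of the other photosynthesis genes are nuclear. Of 40 such genes tested, 38 had a negative log2 difference, with a median of -1.64, 23 had an unadjusted p under 0.05 and a lower value against 1.96% of all genes, and 21 had BAR below every control against 5.58%. The libraries were made from poly(A) RNA, which holds plastid transcripts only in part, so that the level of these genes is not the level of the plastid RNA. They took 0.287 to 0.389% of the counts in the controls, 0.0772, 0.111 and 0.207% in BAR replicates 1, 2 and 3, and 0.276 to 0.388% in the TDZ libraries. Without BAR replicate 1, 36 of the 40 had a negative difference, with a median of -1.18, and 18 had an unadjusted p under 0.05 and a lower value; leaving out other libraries of the 6 gave 16 to 25.

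The difference was larger in plastid-named genes on short assembly sequences. The table places 42250 genes on 17 sequences with 1985 to 3726 genes each, and the other 591 on 190 sequences with 1 to 17 genes. Of the plastid-named genes tested, 26 lay on 6 short sequences; all 26 had a negative difference, with a median of -1.75, 22 had an unadjusted p under 0.05 and 19 had no overlap. Several of the 26 carry the same protein name, such as DVH24_034247, DVH24_034251 and DVH24_034252 for the photosystem I apoprotein A1. The 26 are therefore not 26 separate plastid genes. Plant nuclear chromosomes also hold inserted copies of plastid DNA, so that a protein name alone does not tell a plastid gene from such a copy. The 14 on long sequences had a median of -0.27, and 1 of them had an unadjusted p under 0.05. Other genes on short sequences, 89 in number, had a median of -0.33, with 58 negative, 12 at an unadjusted p under 0.05 and a lower value and 2 with a higher one. The 26 genes summed to 3254, 2462 and 2518 CPM in the controls, to 457.4, 738.6 and 1486 with BAR and to 3306, 2356 and 3102 with TDZ. Each BAR library lay below each control and each TDZ library, with BAR replicate 3 the closest.

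Both called plastid genes lay on short sequences. DVH24_034244, named for the beta subunit of the chloroplast ATP synthase (atpB), read 171.8, 202.6 and 236.4 CPM in the controls and 20.16, 38.25 and 42.32 with BAR, and fell by 2.60 ± 0.36 on the log2 scale, 6.07-fold (adjusted p = 0.03462). DVH24_037512, named for the small photosystem II protein H, read 94.77, 103.7 and 115.9 CPM against 12.87, 24.74 and 23.30, and fell by 2.37 ± 0.33, 5.16-fold (adjusted p = 0.03462). In both genes the highest BAR library was under the lowest control by a wide gap, and BAR replicate 1 was the lowest of the 6. DVH24_037513, the photosystem II antenna protein CP47, read 279.4, 351.9 and 337.7 CPM in the controls and 61.15, 98.08 and 94.87 with BAR (-1.93 ± 0.30; adjusted p = 0.06138). The photosystem II core protein D2, DVH24_034793, read 473.4, 456.9 and 430.0 CPM against 87.38, 144.3 and 192.8 (-1.68 ± 0.32; adjusted p = 0.1848). The photosystem I core proteins had lower values too: DVH24_034252 (psaA) had a log2 difference of -2.40 ± 0.39 and DVH24_034250 (psaB) one of -2.11 ± 0.41, with no overlap in either.

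The plastid genes did not all share one pattern among the BAR libraries. The alpha subunit of the ATP synthase, DVH24_026585, read 1213, 668.0 and 740.3 CPM in the controls and 164.9, 240.5 and 719.5 with BAR, so that BAR replicate 3 lay within the control range (-1.22 ± 0.49). The protease subunit ClpP, DVH24_037514, read 83.27, 56.39 and 63.78 CPM against 7.809, 16.90 and 28.13 (-1.95 ± 0.36; adjusted p = 0.1741), and the epsilon subunit of the ATP synthase, DVH24_034245, read 44.14, 48.94 and 62.85 against 3.377, 14.46 and 8.489 (-2.57 ± 0.49; adjusted p = 0.1848). Of the 26 genes on short sequences, BAR replicate 1 had 26 below every control, replicate 2 had 25 and replicate 3 had 19. For the TDZ libraries those counts were 0, 10 and 15.

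**Figure D2:**
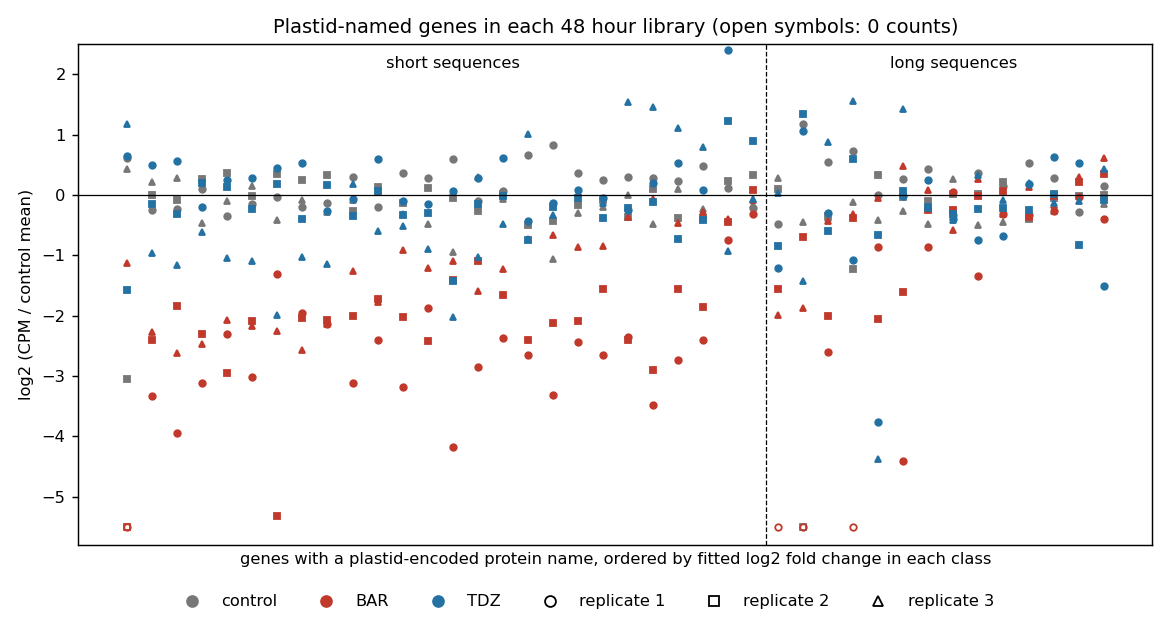
Log2 of CPM over the control mean in each 48 hour library for the 40 plastid-named genes tested, with 26 on short assembly sequences and 14 on long ones, and open symbols at the bottom edge for libraries with 0 counts. On the short sequences the BAR points of replicates 1 and 2 lie below nearly every control point and those of replicate 3 lie nearer to them, while on the long sequences the groups mix.

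Genes named for proteins that mitochondria encode served as the other organelle. They took 0.0155 to 0.0179% of the counts in the controls and 0.0148 to 0.0185% with BAR. Of 12 tested, all on long sequences, 6 differences were positive and 6 negative, with a median of 0.01 (-0.03 to 0.25 with 1 of the 6 libraries left out), and 3 had an unadjusted p under 0.05 and a lower value. These were DVH24_018616 at 32.19, 39.13 and 41.35 CPM against 26.12, 14.96 and 8.055 (-1.19 ± 0.39), DVH24_023250 at 5.204, 6.982 and 14.11 against 0.9498, 4.559 and 1.611 (-1.88 ± 0.61), and DVH24_022449, at or under 2.635 CPM in all 6. In these 3 genes all BAR libraries lay below all controls, and in 2 others of the 12 they lay above. The mitochondrial share thus overlapped between the groups where the plastid share did not. All 12 genes lay on long sequences, where the plastid-named genes had a median of -0.27. The contrast therefore does not separate the organelle from the kind of sequence. Here too, a protein name alone does not tell an organelle gene from a nuclear one.

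Nuclear genes for plastid gene expression, such as RNA-binding proteins that stabilise plastid transcripts, leaned the same way with smaller differences. Of 32 tested, 27 had a negative log2 difference, with a median of -0.28, 9 had an unadjusted p under 0.05 and a lower value, and 10 had BAR below every control. DVH24_039712, a 31 kDa ribonucleoprotein of the chloroplast, read 210.9, 248.1 and 237.4 CPM in the controls and 135.6, 157.2 and 119.5 with BAR (-0.76 ± 0.20; adjusted p = 0.6331). Its namesake DVH24_008653 read 183.3, 184.8 and 180.0 CPM against 107.8, 127.4 and 112.5 (-0.66 ± 0.18), and the RNA-binding protein CP29B, DVH24_001499, read 1306, 1025 and 1147 against 632.9, 760.8 and 691.8 (-0.74 ± 0.23). In these 3 genes the groups were tight and did not overlap, while none passed the adjusted threshold. Without BAR replicate 1, 20 of the 32 were negative, with a median of -0.11, and without control replicate 1, 23, with a median of -0.16. Without control replicate 3 or BAR replicate 3 the median was -0.42 or -0.45. The count of 9 was 4 without control replicate 1 and 3 without BAR replicate 1, in which library 30 of the 32 genes lay below every control, against 14 in each of the other BAR libraries.

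Other photosynthesis genes of the nucleus showed little. Of 56 photosystem genes, 37 had a negative difference, with a median of -0.06 (-0.29 to 0.15 with 1 of the 6 libraries left out), and 2 had an unadjusted p under 0.05; a chlorophyll a-b binding protein, DVH24_017452, had all 3 BAR libraries below all 3 controls (-0.64 ± 0.27). Summed over the list, the photosystem genes read 27480 CPM in BAR replicate 1, 48360 in replicate 2 and 35410 in replicate 3, against 33310 to 42470 in the controls. The low sum thus belonged to replicate 1 alone. A small subunit of Rubisco, the carbon-fixing enzyme, DVH24_007421, was lower in all 3, with 267.2, 175.7 and 190.0 CPM against 74.03, 55.27 and 72.68 (-1.65 ± 0.29, adjusted p = 0.1125). It was the only 1 of 29 genes of the Calvin cycle list with an unadjusted p under 0.05. Of the 29, 18 had a negative difference, with a median of -0.12 (-0.30 to 0.11 with 1 of the 6 libraries left out).

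The third gene that fell, DVH24_019894, carries no protein name in the table. It read 89.50, 67.19 and 56.19 CPM in the controls and 18.20, 8.618 and 17.35 with BAR, with no overlap, and fell by 2.27 ± 0.30 on the log2 scale, 4.82-fold (adjusted p = 0.03462). Among the next lower genes by p that had a protein name were DVH24_025984, a UDP-glucuronate epimerase of pectin synthesis (-2.15 ± 0.37; adjusted p = 0.1125), DVH24_040833, a carotenoid cleavage dioxygenase (-2.68 ± 0.52; adjusted p = 0.2206), DVH24_007012, a protein kinase named fray2 (-1.50 ± 0.31), and DVH24_040352, a DnaJ chaperone (-1.90 ± 0.39). In each of them all 3 BAR libraries lay below all 3 controls, which the naming rule required.

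Phloem genes leaned towards BAR, and within the list it was the sieve element occlusion genes. These encode structural proteins that plug sieve tubes after wounding. Of 39 phloem genes tested, 30 had a positive difference, with a median of 0.16, 10 had an unadjusted p under 0.05 and 12 had BAR above every control; without BAR replicate 1 the median was 0.10 and 8 had such a p, and without BAR replicate 2 or 3 it was 0.28 or 0.27, and without control replicate 2 0.26. All 10 sieve element occlusion genes were positive, with a median of 1.18, 8 of them among the 10 just counted; this subset was picked out after its values were seen. DVH24_013431 read 18.25, 18.90 and 19.31 CPM in the controls and 50.07, 38.31 and 53.97 with BAR (1.33 ± 0.20; adjusted p = 0.05042), the closest to the threshold of all genes not called. DVH24_008651 read 37.65, 34.85 and 47.21 CPM against 91.86, 66.50 and 62.03 (0.88 ± 0.20), and DVH24_033727 read 37.01, 27.53 and 28.63 against 86.75, 63.16 and 41.02 (1.04 ± 0.25). The 17 callose synthase genes of the same list had a median of 0.01, and 10 were positive. Summed over the phloem list, BAR replicate 1 read 2364 CPM, replicates 2 and 3 read 1752 and 1641 and the controls 1504 to 1648, so that the summed level was high mainly in replicate 1.

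D-type cyclins carry cytokinin signals into the cell cycle, and 10 of 16 tested were positive, with 2 at an unadjusted p under 0.05. Cyclin-D3-1, DVH24_021694, the member known in Arabidopsis for its response to cytokinin, read 65.02, 85.24 and 77.03 CPM in the controls and 128.5, 114.4 and 130.8 with BAR, with no overlap (0.72 ± 0.19; adjusted p = 0.6838). The cyclin-dependent kinase inhibitor 3, DVH24_028616, which restrains division, was also higher in all 3, with 7.453, 9.683 and 10.45 CPM against 24.38, 14.01 and 15.74 (0.97 ± 0.28). Of 43 genes for DNA replication, 24 were positive, none had an unadjusted p under 0.05 and a higher value, and of 53 histone genes 45 were negative, with a median of -0.22 (-0.36 without control replicate 3, -0.07 without control replicate 2) and 4 at an unadjusted p under 0.05. A histone H4 gene, DVH24_008360, read 51.14, 51.18 and 31.03 CPM against 27.60, 21.24 and 27.57 (-0.80 ± 0.24). Histones are made mostly in the phase of DNA synthesis.

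Of 73 genes for shoot meristem and organ formation, 47 were positive, with 5 at an unadjusted p under 0.05 and a higher value and none lower. Both genes named LBD4, a LOB domain protein, were among them: DVH24_021861 read 1.092, 2.108 and 1.531 CPM in the controls and 25.38, 8.673 and 2.479 with BAR (2.95 ± 0.74), and DVH24_010839 read 0.3212, 0.7246 and 0.3995 against 3.113, 3.836 and 1.425 (2.52 ± 0.85). The BAR libraries were scattered in the first, with replicate 3 only just above the controls. Growth-regulating factor 9, DVH24_026050, read 3.855, 2.240 and 1.997 CPM against 6.437, 5.449 and 6.073 (1.15 ± 0.39).

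Auxin moves between cells through PIN carriers and is inactivated by GH3 enzymes, and all media held the same auxin. DVH24_009456, the carrier named component 6, read 2.763, 1.449 and 2.597 CPM in the controls and 17.41, 8.507 and 4.523 with BAR (2.16 ± 0.50; adjusted p = 0.3909). Auxin response factor 5, DVH24_012978, read 48.12, 47.30 and 53.66 CPM against 121.4, 64.94 and 71.01 (0.79 ± 0.26). A pair of GH3.1 genes had log2 differences of 1.49 ± 0.40 (DVH24_030118) and 1.13 ± 0.34 (DVH24_026239), with no overlap. Over the 37 SAUR and GH3 genes tested, 23 were positive, with a median of 0.09 (0.02 to 0.15 with 1 of the 6 libraries left out), 2 had an unadjusted p under 0.05 and a higher value, the GH3.1 pair, and 2 a lower one. Of 68 genes for auxin transport and response, 46 were positive, 4 had an unadjusted p under 0.05 and a higher value and none a lower one, and of 33 Aux/IAA repressors none had an unadjusted p under 0.05.

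Clock and light-signalling genes differed in both directions. Of 49 tested, 4 had an unadjusted p under 0.05 and a higher value and 4 a lower one. Lower were Adagio protein 3, a blue-light receptor also known as FKF1, both genes named APRR5 and GIGANTEA, and higher were REVEILLE 7, REVEILLE 1, EARLY FLOWERING 4 and a phytochrome A-associated F-box protein. Adagio 3, DVH24_007611, read 50.82, 18.44 and 30.76 CPM in the controls and 10.39, 8.896 and 6.878 with BAR (-1.93 ± 0.35; adjusted p = 0.1507). One APRR5 gene, DVH24_024986, read 68.87, 27.80 and 28.03 CPM against 8.812, 14.29 and 16.98 (-1.64 ± 0.37), and REVEILLE 7, DVH24_009191, read 29.10, 26.88 and 47.47 against 67.86, 70.11 and 73.99 (1.03 ± 0.23). In Arabidopsis, clock genes peak at different times of the day. The hour of harvest of each library was not given in the sources used here.

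**Figure D3:**
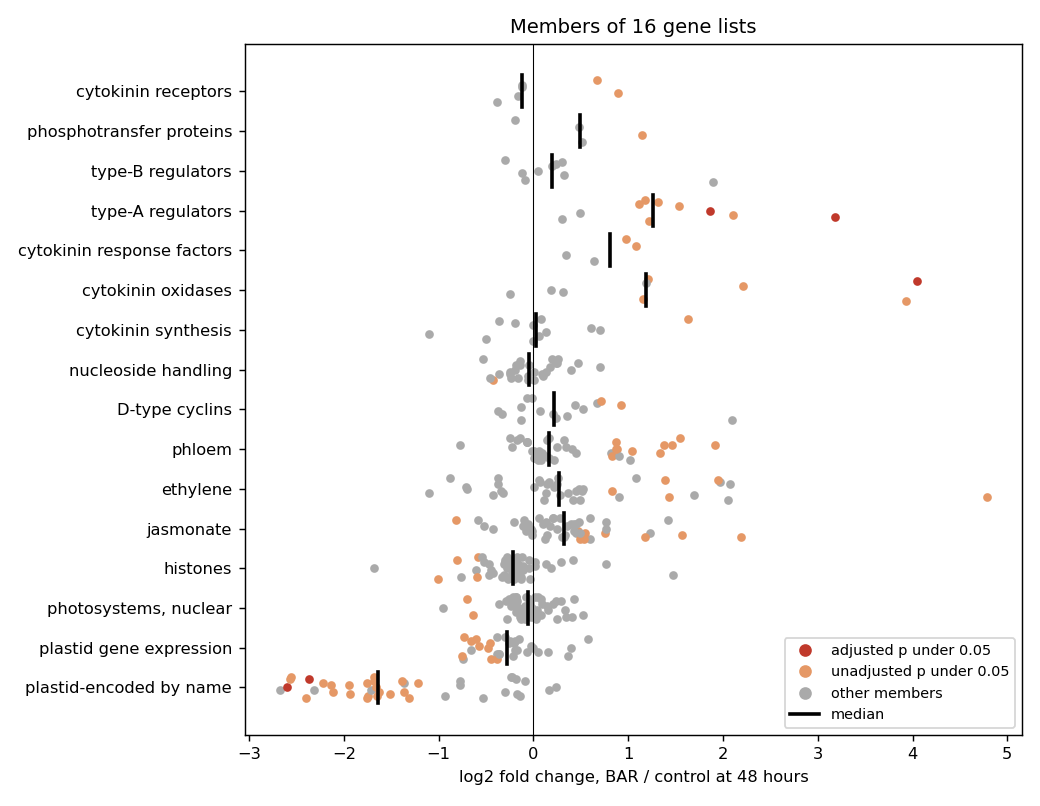
Log2 difference between BAR and control at 48 hour for every tested member of 16 gene lists, with a bar at the median, red points for an adjusted p under 0.05 and orange points for an unadjusted p under 0.05. The type-A regulators lie wholly above zero and the plastid-encoded list lies below it, while most other lists straddle it.

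Among other hormones, ethylene and jasmonate lists leaned to BAR. Of 38 ethylene genes tested, 29 were positive and 5 had an unadjusted p under 0.05. Of these, 3 were named for ACC oxidase, the enzyme that makes ethylene, and 2 for an ACC oxidase homolog, a name that does not mark an ethylene-forming enzyme. Of 7 genes named ACC oxidase 5 were positive, and of 17 named homologs 16. DVH24_028108 read 115.5, 90.84 and 102.3 CPM in the controls and 93.55, 230.4 and 222.3 with BAR, so that BAR replicate 1 lay within the control range (0.82 ± 0.30). Of 47 jasmonate genes, 35 were positive, with 8 at an unadjusted p under 0.05 and a higher value and 1 lower. Jasmonate-induced oxygenase 2, DVH24_023747, read 46.52, 33.99 and 35.82 CPM against 51.97, 161.1 and 130.7 (1.56 ± 0.57). Without control replicate 2, none of the ethylene genes and 1 of the jasmonate genes had an unadjusted p under 0.05 and a higher value. Both counts were lowest in that fit, in which 27 of 38 ethylene and 36 of 47 jasmonate genes were positive. The ethylene count was 3 without control replicate 1, BAR replicate 2 or BAR replicate 3, and the jasmonate count was 5 without control replicate 3, 2 without BAR replicate 2 and 4 without BAR replicate 3. Abscisic acid 8'-hydroxylase 4, DVH24_021634, which inactivates abscisic acid, read 8.738, 6.521 and 5.593 CPM against 17.31, 21.24 and 16.54, a tight pair of groups (1.40 ± 0.32; adjusted p = 0.3841).

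Wall and sugar genes also had differences in both directions. Expansin-A12, DVH24_003156, a wall-loosening protein, had a log2 difference of 1.33 ± 0.34, whereas the xyloglucan endotransglucosylases DVH24_000824 and DVH24_026133, which cut and rejoin wall polymers, had -1.02 ± 0.28 and -1.36 ± 0.40. A pectate lyase, DVH24_031673, read 1.221, 5.599 and 0.9321 CPM in the controls and 18.26, 8.340 and 7.374 with BAR (2.13 ± 0.65), and a polygalacturonase, DVH24_035524, another pectin-cutting enzyme, read 4.754, 2.701 and 6.591 against 0.6859, 0.9452 and 0.9295 (-2.45 ± 0.53). Sucrose synthase, DVH24_029571, read 44.78, 54.74 and 70.57 CPM against 207.2, 182.6 and 63.20, so that BAR replicate 3 did not share the difference (1.41 ± 0.42). A vacuolar proton pump that uses pyrophosphate, DVH24_017718, read 29.49, 28.19 and 32.76 CPM against 97.30, 55.60 and 49.63 (1.16 ± 0.24), and the vacuolar water channel TIP1-3, DVH24_023143, read 39.00, 33.92 and 38.95 against 136.9, 112.2 and 52.73 (1.43 ± 0.39). The glucanase DVH24_015044 had a difference of 1.08 ± 0.27.

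Further named genes were higher in all 3 BAR libraries. CYP724B1, DVH24_028002, a cytochrome P450 known in rice for brassinosteroid synthesis, read 1.285, 1.186 and 1.132 CPM in the controls and 14.51, 4.114 and 4.090 with BAR (2.65 ± 0.52; adjusted p = 0.2295). RSI-1, DVH24_030907, a small secreted protein first described in tomato roots, read 1.285, 2.108 and 3.196 CPM against 15.04, 15.73 and 7.746 (2.55 ± 0.53). An O-methyltransferase, DVH24_014579, read 4.690, 7.575 and 10.19 CPM against 19.73, 26.19 and 14.56 (1.43 ± 0.30), and the ACT domain protein ACR4, DVH24_041074, read 23.64, 27.01 and 26.77 against 50.23, 45.48 and 48.08 (0.89 ± 0.19), with little scatter in either group. An alpha-pinene synthase, DVH24_003515, had 0, 0 and 0.1332 CPM in the controls and 4.907, 2.502 and 2.231 with BAR, and no fold is given against so few control counts. Proline dehydrogenase 2, DVH24_031328, which breaks proline down, read 10.92, 7.378 and 6.059 CPM against 18.31, 19.46 and 32.16 (1.52 ± 0.38). Pyrroline-5-carboxylate reductase, DVH24_004879, the last enzyme of proline synthesis, read 13.04, 15.35 and 12.38 CPM against 7.598, 7.283 and 7.560 (-0.86 ± 0.24). Another proline synthesis enzyme, the pyrroline-5-carboxylate synthase DVH24_004376, went the other way. It read 5.461, 2.964 and 7.191 CPM against 13.24, 11.73 and 9.728 with BAR (1.15 ± 0.39). The metallothioneins DVH24_003143 and DVH24_032848, small metal-binding proteins, were lower, at log2 differences of -1.96 ± 0.43 and -0.83 ± 0.29 with no overlap. None of the genes of this paragraph passed the adjusted threshold.

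**Figure D4:**
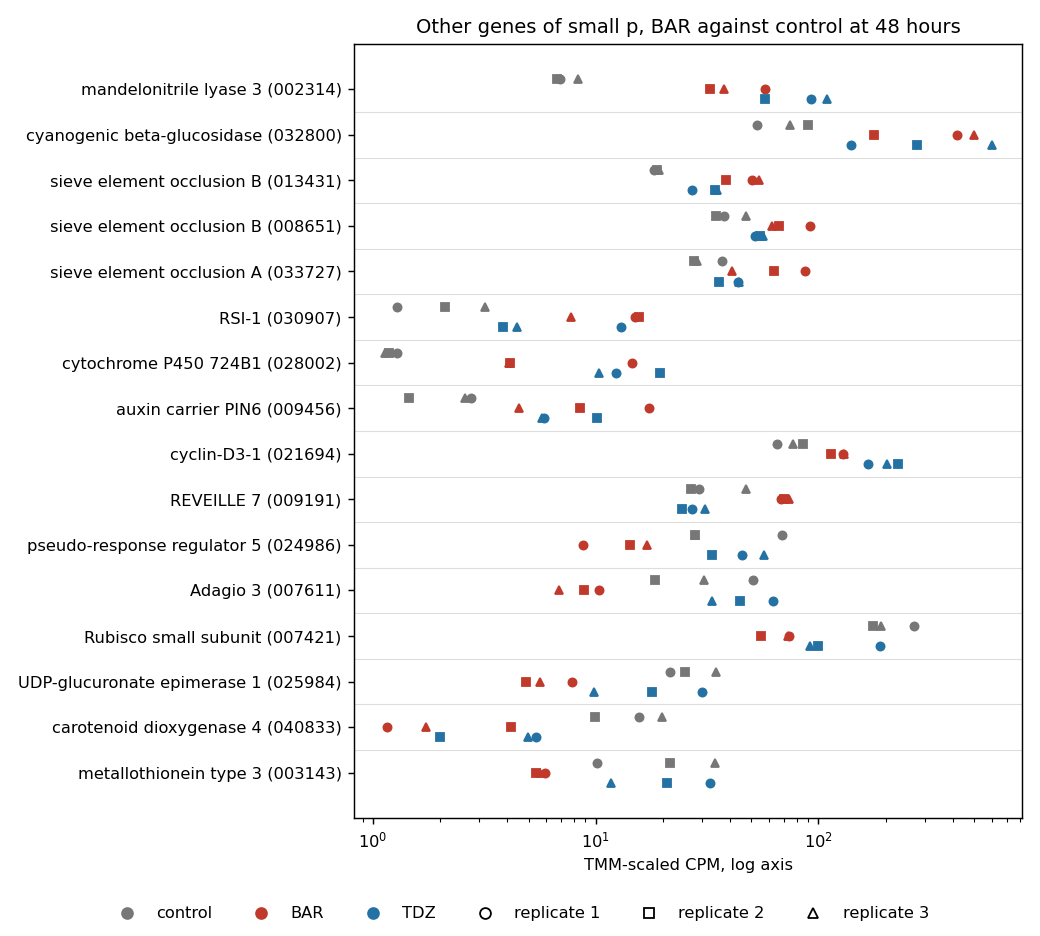
CPM on a log axis in each 48 hour library for 16 further genes, with control in grey, BAR in red and TDZ in blue. BAR points lie clear of the control points for (R)-mandelonitrile lyase 3, and control replicate 1 stands above the other controls for Adagio protein 3.

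BAR and TDZ were given at the same 4.5 µM and read at the same 48 hour, and 1 pair of compounds was compared. BAR carries an adenine ring with a ribose and TDZ is a phenylurea with no purine. Of 24650 genes, 13 differed between them at an adjusted p under 0.05 (0.0527%), against 493 by DESeq2 and 0 by edgeR with the spread taken from all 18 libraries. Both compounds were set against the same 3 controls, so the values are given side by side. ARR17, DVH24_024436, read 38.89, 37.01 and 47.25 CPM with TDZ, above each BAR library, and BAR minus TDZ was -1.83 on the log2 scale (95% interval -2.36 to -1.30; adjusted p = 0.03188). CKX3, DVH24_029452, read 428.6, 296.3 and 185.2 CPM with TDZ, and BAR minus TDZ was -3.21 (95% interval -4.34 to -2.08), which just missed the threshold (adjusted p = 0.05288). ORR4, DVH24_042790, read 11.11, 13.23 and 14.43 CPM with TDZ, and mandelonitrile lyase 3, DVH24_002314, 92.48, 57.52 and 109.7; for these the difference between the compounds had adjusted p-values of 0.4303 and 0.1743, which does not show that they act alike. Over the 10 type-A genes the median log2 difference from control was 1.26 with BAR and 1.93 with TDZ.

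In the plastid genes the compounds differed. DVH24_034244 (atpB) read 286.8, 182.9 and 104.5 CPM with TDZ, and DVH24_037512 (psbH) 126.7, 89.19 and 49.04; BAR was lower than TDZ at adjusted p-values of 0.03188 and 0.04789. CP47, DVH24_037513, was lower with BAR than with TDZ as well (adjusted p = 0.03188), and so were DVH24_019894, the gene with no protein name, and Adagio 3, DVH24_007611 (adjusted p = 0.03188 each). Of the 26 plastid-named genes on short sequences 11 had a positive difference with TDZ, with a median of -0.10, against none and -1.75 with BAR. The proline synthesis enzyme DVH24_004376 differed in the other direction, with 13.24, 11.73 and 9.728 CPM with BAR, 1.197, 1.820 and 1.062 with TDZ (adjusted p = 0.03188) and 5.461, 2.964 and 7.191 in the controls.

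The effect of BAR at 48 hour was also set against its effect at 4 week in a fit of all 18 libraries, in which it differed between the times for 2968 of 26053 genes (11.4%), 1746 upwards and 1222 downwards (4.69%). Of the 26 plastid-named genes on short sequences, 25 were negative at 4 week, with a median log2 difference of -5.98. Among the 26, 23 fell at an adjusted p under 0.05 at 4 week, against 12.7% of all genes. For 14 the effect was lower at 4 week than at 48 hour at an adjusted p under 0.05 for that difference. For atpB the log2 difference was -2.60 at 48 hour and -6.07 at 4 week, and for psbH -2.37 and -5.82. At 4 week atpB read 14.24, 261.0 and 256.4 CPM in the controls and 3.553, 1.943 and 2.417 with BAR, so that control replicate 1 of that time stood far below the other controls and still above BAR. A library labelled TDZ at 4 week that goes against its label is part of that fit; without it, the effect differed between the times for 5843 genes.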

How the data were processed

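Deposited read counts per gene were used for the 18 libraries; per the submitters' processing notes the reads went through CASAVA, HISAT2 2.0.5 and featureCounts 1.5.0-p3, while the genome build, annotation and strand setting were not given in the sources used here. Reads of a gene and of an antisense partner therefore cannot be told apart. A deposited FPKM table was not used. The count table held 42841 genes, 27453 with a protein name. None of its IDs (0) matched the RefSeq gene table, so no sequence or position is printed.

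Counts were scaled by TMM and fitted with the quasi-likelihood test of edgeR 4.0.16 in R 4.3.3, over the 9 libraries of 48 hour (control, BAR and TDZ), after a filter on low counts (filterByExpr, minimum count 10, minimum total 15). A gene was called at a Benjamini-Hochberg adjusted p under 0.05 over all genes tested. Values per library are TMM-scaled CPM, and errors are standard errors of the log2 difference. The change of the effect between times came from a fit of all 18 libraries. Figures were drawn with matplotlib 3.10.9. Of the fits, only the edgeR test of BAR against control at 48 hour was tried on simulated counts.

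The 53 gene lists, the 66 protein names left out of them and the rules for named genes were chosen with earlier results of these data known. Named were the called genes, the 12 characterised genes of smallest p in each direction with at least 5 CPM and no overlap between groups, the 3 members of smallest p of each list, all members of the cytokinin lists and the most abundant plastid and oxidase genes. Replicate 3 of control and of BAR are libraries whose names end in an unexplained letter b. No 2 of the 6 libraries agreed within counting noise. Alternatives were RLE scaling, DESeq2 1.42.0, limma-voom (limma 3.58.1), no filter, other sets of libraries, each library left out, b-named libraries summed, a replicate block and scaling without organelle genes.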

Additional observations from a re-analysis of the deposited data

Results flagged for a closer look

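For 26 of the 91 named genes the effect of BAR differed between 48 hour and 4 week by a test of the difference itself (edgeR interaction term over all 18 libraries, adjusted p under 0.05). The values below are that difference on the log2 scale, the effect at 4 week minus the effect at 48 hour. Over all genes tested in that fit, the effect differed for 11.4%. Many of the 91 genes were named for a small p at 48 hour, and the difference subtracts those same 48 hour values. That choice favours differences against the 48 hour sign, so the count of 26 is not read as a result about the named genes. The fit includes a library labelled TDZ at 4 week that goes against its label, and control replicate 1 of 4 week lay apart from the other 4 week controls in the plastid genes and in several others named here.

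Of the 26 genes, 10 had the same sign at both times with a larger difference at 4 week, and all 10 were lower with BAR. Among these, 7 are named for plastid proteins: the ATP synthase subunits beta (DVH24_034244, -3.47), epsilon (DVH24_034245, -3.38) and alpha (DVH24_026585, -3.92), psaB (DVH24_034250, -4.42), D2 (DVH24_034793, -4.65), psbH (DVH24_037512, -3.45) and ClpP (DVH24_037514, -4.88). The other 3 were the mitochondrial NADH dehydrogenase chain 3 (DVH24_018616, -4.12), the UDP-glucuronate epimerase (DVH24_025984, -3.13) and the gene with no protein name (DVH24_019894, -5.33).

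In the other 16 genes the fitted differences had opposite signs. The test is of the difference between the times, not of a reversal: none of the 16 passed the adjusted threshold at 48 hour, and CRF4, the cyclin-dependent kinase inhibitor 3 and the 31 kDa ribonucleoprotein passed at neither time (adjusted p at 4 week 0.05604, 0.0977 and 0.1247). Positive at 48 hour and negative at 4 week were a second CKX5 gene (DVH24_020176, -4.86), CRF4 (DVH24_022457, -2.23), both GH3.1 genes (DVH24_026239, -4.95, and DVH24_030118, -6.86), abscisic acid 8'-hydroxylase 4 (DVH24_021634, -3.75), the pyrroline-5-carboxylate synthase (DVH24_004376, -8.74), expansin-A12 (DVH24_003156, -2.81), the vacuolar proton pump (DVH24_017718, -2.34), the cyclin-dependent kinase inhibitor 3 (DVH24_028616, -1.81) and ACR4 (DVH24_041074, -2.35). At 4 week DVH24_026239 read 5.236, 0.4847 and 0 CPM in the controls and 0.05825, 0.2220 and 0.1074 with BAR, so that its negative difference rests on control replicate 1. Negative at 48 hour and positive at 4 week were adenosine kinase 2 (DVH24_005253, 1.34), Histidine kinase 2 (DVH24_032453, 3.15), the Rubisco small subunit (DVH24_007421, 4.18), the carotenoid cleavage dioxygenase (DVH24_040833, 5.65), the kinase fray2 (DVH24_007012, 2.29) and a 31 kDa ribonucleoprotein (DVH24_008653, 1.12).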

How the results depend on the processing

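The direction of the called genes held in the alternatives run, but the number of calls did not. Against 4 higher and 3 lower genes, DESeq2 called 41 and 38, a fit without the filter on low counts 13 and 14, limma-voom 0 and 4, the fit of all 18 libraries 0 and 0, that of 17 libraries 1 and 0 and that of the 6 libraries alone 2 and 11. Leaving out 1 of the 9 libraries gave 0 to 6 higher and 0 to 11 lower. RLE scaling and scaling without the organelle lists gave the same 7 genes. With the libraries whose names end in b summed into the library they repeat, 4 were higher and 2 lower, but only 2 of these were among the 7. ORR4 was called in 14 of the 19 alternatives, (R)-mandelonitrile lyase 3 in 12, the gene with no protein name in 10, atpB in 9, psbH and CKX3 in 8 each and ARR17 in 6. The number of genes that differed between BAR and TDZ was 13, but 493 with DESeq2 and 0 with all 18 libraries, and the number whose BAR effect differed between the times was 2968, but 5843 with 17 libraries, 5608 with 12 and 5048 with DESeq2. The cause of these differences was not tested.

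The replicate numbers are shared between groups, but same-numbered control and BAR libraries did not deviate together (correlations of -0.25, -0.06 and -0.26 across genes), so that the numbers were not taken to pair the samples. A fit with the replicate block called 2 higher and 1 lower gene, 5 between BAR and TDZ and 2228 between the times.

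Of 1634 values for 91 named genes, 1495 kept their direction and side of the threshold, 72 gained the call, 66 lost it and 1 changed sign: DVH24_028059 (Histidine kinase 2), with 0.06 without control replicate 2. Of 1007 medians of the 53 lists, 22 moved by more than the spread between libraries, all of them when a library was left out. In counts of members at an unadjusted p under 0.05 with 1 of the 6 libraries left out, chosen after seeing the data, oxidases had 4 to 5, phloem 8 to 11, plastid-encoded 16 to 25 and plastid gene expression 3 to 8. Depth limits the genes under about 1 CPM, such as the type-A gene DVH24_022837.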

Other observations

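Other lists had mostly positive differences or were on both sides of zero. Genes for lignin and the secondary wall numbered 110, of which 74 had a positive log2 difference with BAR, with a median of 0.30 (0.12 without BAR replicate 1), 10 an unadjusted p under 0.05 and a higher value and 1 a lower one. Of 124 genes for defence proteins 88 were positive, with a median of 0.24 (0.14 without BAR replicate 1), and of 27 aquaporins 21 were positive, with a median of 0.26 (0.08 without BAR replicate 1). Flavonoid genes were on both sides, with 17 of 41 positive and none at an unadjusted p under 0.05.

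Genes for the cytosolic ribosome, whose products make the cell's protein, were 242, of which 95 were positive with BAR, with a median of -0.05 (-0.24 to 0.12 with 1 of the 6 libraries left out), 1 had an unadjusted p under 0.05 and a higher value and none a lower one. With TDZ, set against the same controls, 209 of them were positive, with a median of 0.19. Genes of nitrogen use had a median of -0.04 with BAR (-0.11 to 0.03 with 1 of the 6 libraries left out) and -0.41 with TDZ. These medians were not tested against each other.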
